A study of Mus musculus with 10 samples.

Results

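The genes described here are 33 mouse genes of cholesterol synthesis, sterol sensing and cholesterol transport, named by symbol for their known roles. They were chosen with earlier results of these data known, so the shares of them called are descriptions. Each of the 33 matched 1 Ensembl identifier among the 22024 identifiers of the count table. All 33 passed the filter on low counts that left 15191 genes for testing. By role they were divided into 19 synthesis enzymes, 5 sterol sensors, 6 genes of the liver X receptors (LXR) and of efflux, and 3 genes of carriage, storage and removal.

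PolyA RNA of the lumbar spinal cord was sequenced from 10 female mice aged 3 months, with 1 library per animal. The 5 animals labelled M337V (1, 2, 3, 7 and 9) bore human TARDBP with the M337V mutation on a bacterial artificial chromosome, which had been inserted at Rosa26. Its product TDP-43 binds RNA and aggregates in amyotrophic lateral sclerosis, a disease to which M337V is linked. The 2 animals labelled WT (8 and 10) bore that construct without the mutation, and the 3 animals labelled NTg (4, 5 and 6) were by that label C57BL/6 mice with no transgene. The construct sits apart from the mouse's own Tardbp gene. Each transgenic line went back to embryonic stem cells with a docking site at that locus and was backcrossed to C57BL/6J for at least 3 generations. The labels do not say whether the animals used were heterozygous or homozygous, or which of them were littermates.

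Neural tissue makes nearly all of its own cholesterol, because lipoproteins of the blood do not cross the blood-brain barrier, and much of it ends up in myelin. Synthesis runs from acetyl-CoA through mevalonate and farnesyl pyrophosphate to squalene, lanosterol and cholesterol. When sterols of the endoplasmic reticulum run low, Scap escorts the SREBP transcription factors (genes Srebf1 and Srebf2) to the Golgi for cleavage, and the freed factors switch on synthesis genes. Insig proteins hold Scap back when sterols are plentiful. The liver X receptors answer to oxysterols and switch on genes that export cholesterol, and in neurons the hydroxylase encoded by Cyp46a1 turns cholesterol into a form that leaves the brain and cord.

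Library totals ran from 18724888 to 21041474 counts. Human TARDBP had 2192 to 2723 counts in the 7 libraries labelled M337V or WT, against 1 count in NTg 5 and 4 counts in NTg 6. The library labelled NTg animal 4 had 2415 counts of human TARDBP, which goes against its label. It was kept in the NTg group by its label. Values without it are given for the counts of calls among the 33 genes and over all genes. They are also given beside each called gene of the 33. For the other gene lists and the cell type markers, calls without it are not given. WT 8 also stood apart, with the lowest score of Schwann cell markers (-3.19 on the log2 scale) against 2.08 in NTg 4 and a range of -0.96 to 1.70 in the other libraries. The names of the libraries number M337V 1 to 3 as 10 to 12 and the other 7 libraries as 2 to 8. For the 33 genes and all genes, counts of calls in M337V against NTg are therefore also given without M337V 1 to 3. Markers of neurons, oligodendrocytes and astrocytes were present in every library.

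A group of synthesis enzymes was higher in both transgenic groups than in NTg, while the cholesterol hydroxylase gene Cyp46a1 was lower. In M337V against NTg, edgeR's quasi-likelihood test called 5 of the 33 genes higher (Idi1, Ggps1, Cyp51, Msmo1 and Stard4) and 1 lower (Cyp46a1) at a Benjamini-Hochberg adjusted p below 0.05. Over all genes tested, 4.29% were called, 2.67% higher and 1.61% lower. In WT against NTg, 7 of the 33 genes were called higher (the same 5 with Hmgcs1 and Insig1) and 1 lower (Cyp46a1), against 5.64% of all genes tested, 3.59% higher and 2.05% lower. Both comparisons share the NTg libraries, so they are not independent of each other. In M337V against WT, 0 of the 33 genes and 0 of all 15191 (0%) were called by edgeR, at unadjusted p values under 0.05 for 6 of the 33 genes and 1012 of all genes. DESeq2 called 30 genes between M337V and WT and limma-voom 0, and neither called any of the 33. The changes were small, between 0.24 and 0.54 in size on the log2 scale. In bulk tissue, fewer cells of a type and less RNA per cell cannot be told apart.

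These calls rest on few NTg animals. Without NTg 6 none of the 33 genes was called in either comparison, where edgeR called 2 genes of all tested in M337V against NTg and 44 in WT against NTg. Without the library labelled NTg animal 4, Idi1 was the 1 gene called in M337V against NTg, and 5 (Idi1, Ggps1, Cyp51, Msmo1 and Stard4) were called in WT against NTg, with 197 and 283 called of all genes. Without M337V 1 to 3 none was called in M337V against NTg (3 of all genes), and without M337V 2 only Cyp51 was (53 of all genes). Cyp46a1 and Cyp51 were the 2 called without M337V 3 and likewise without NTg 5, with 161 and 280 of all genes. Without M337V 1 or without M337V 7, 4 were called, with 465 and 723 of all genes. For WT against NTg, 1 gene (Ggps1) was called without WT 8 (246 of all genes) and 3 without WT 10 (265 of all genes). With NTg 4 and WT 8 both left out, 1 gene (Ggps1) was called in WT against NTg and 4 (Cyp46a1, Cyp51, Idi1 and Stard4) in M337V against NTg, with 142 and 456 of all genes. Each called gene kept its direction in all 20 alternatives tried.

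The windows around the starts of transcription of 5 of these genes are shown because they hold the letters of a sterol response element, or because the gene changed without them. Each spans 250 bases before to 50 after the start as RefSeq gives it on GRCm38.p6, read 5′ to 3′ along the gene's strand. Capitals mark every match, on either strand, to the core of the sterol response element bound by SREBP (CACNCCAC), to the CCAAT box bound by NF-Y (CCAAT) and to the palindromic E-box (CACGTG). The first 3 hold the sterol response core and were set by the rule for named genes, and Cyp51 and Cyp46a1 were chosen after their values were seen. The Hmgcs1 window lies at chr13:119690101-119690400 on the plus strand, Insig1 at chr5:28071162-28071461 on the plus strand, and Acat2 at chr17:12960676-12960975 on the minus strand. The Cyp51 window lies at chr5:4104648-4104947 on the minus strand and Cyp46a1 at chr12:108334066-108334365 on the plus strand.
Hmgcs1: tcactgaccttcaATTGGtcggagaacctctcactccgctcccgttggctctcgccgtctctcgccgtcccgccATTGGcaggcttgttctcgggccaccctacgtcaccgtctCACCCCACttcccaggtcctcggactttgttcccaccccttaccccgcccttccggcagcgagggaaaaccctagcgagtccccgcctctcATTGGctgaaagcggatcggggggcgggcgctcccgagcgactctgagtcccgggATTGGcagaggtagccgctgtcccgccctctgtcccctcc
Insig1: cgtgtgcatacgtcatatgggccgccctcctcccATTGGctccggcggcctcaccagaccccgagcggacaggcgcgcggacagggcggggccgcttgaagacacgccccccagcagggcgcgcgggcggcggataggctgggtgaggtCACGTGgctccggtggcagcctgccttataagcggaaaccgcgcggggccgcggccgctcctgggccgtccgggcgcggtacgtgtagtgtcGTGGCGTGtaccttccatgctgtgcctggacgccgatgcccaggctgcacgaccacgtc
Acat2: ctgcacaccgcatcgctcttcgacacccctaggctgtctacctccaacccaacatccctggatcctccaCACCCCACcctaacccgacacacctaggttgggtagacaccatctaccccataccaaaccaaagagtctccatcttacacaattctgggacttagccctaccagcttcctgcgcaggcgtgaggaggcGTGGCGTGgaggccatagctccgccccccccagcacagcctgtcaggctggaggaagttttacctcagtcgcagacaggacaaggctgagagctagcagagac
Cyp51: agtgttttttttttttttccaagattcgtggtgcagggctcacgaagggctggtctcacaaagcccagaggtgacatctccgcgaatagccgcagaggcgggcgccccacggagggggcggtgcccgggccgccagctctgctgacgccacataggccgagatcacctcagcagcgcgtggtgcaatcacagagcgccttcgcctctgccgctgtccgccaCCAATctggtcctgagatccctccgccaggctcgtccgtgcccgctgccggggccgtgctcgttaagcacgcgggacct
Cyp46a1: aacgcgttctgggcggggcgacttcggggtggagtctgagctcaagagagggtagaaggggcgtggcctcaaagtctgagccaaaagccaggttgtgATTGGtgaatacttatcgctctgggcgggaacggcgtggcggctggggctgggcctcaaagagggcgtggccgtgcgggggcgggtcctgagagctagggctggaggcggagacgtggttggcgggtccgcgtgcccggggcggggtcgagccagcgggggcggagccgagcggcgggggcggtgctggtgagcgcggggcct

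In the Hmgcs1 window the match CACCCCAC begins 136 bases before the start, among 4 matches to the CCAAT box on the reverse strand. The Insig1 window holds GTGGCGTG, a match on the reverse strand, 9 bases before the start, with a CCAAT box and an E-box further upstream. The Acat2 window holds 2 matches to the sterol response core and none to the CCAAT box. Cyp51 and Cyp46a1 have 1 match each to the CCAAT box and none to the sterol response core in this window. Of the 33 genes 28 had a window; Abcg1, Fdps, Stard4, Fdft1 and Sqle had none in the table. The sterol response core was in 3 of their 39 windows (7.69%) and in 6.24% of all 32851 windows, and the E-box in 17.9% of their windows and 7.15% of all. The CCAAT box was in 59.0% of their windows and 37.4% of all. Counted by gene, with a match in any of its windows, it was in 15 of the 16 synthesis genes with a window. Acat2 was the exception. A share by gene was not counted over all genes. A match is a description of letters and says nothing of binding, and no match says only that these letters are not in this window.

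Among the synthesis enzymes, 4 of 19 rose in M337V against NTg and 5 of 19 in WT against NTg, with 0 lower in either. The median log2 difference of the 19 was 0.10 in M337V against NTg and 0.25 in WT against NTg, where the median over all genes tested was -0.01 and -0.02. The enzymes above 0 numbered 18 of 19 in M337V against NTg (Mvd was at -0.02) and 19 of 19 in WT against NTg. For the 7 enzymes from acetoacetyl-CoA to farnesyl pyrophosphate the median was 0.01 in M337V against NTg and 0.16 in WT against NTg. For the 11 enzymes that make squalene and turn it into cholesterol it was 0.16 in M337V against NTg and 0.27 in WT against NTg.

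Hmgcs1 (chr13:119690379-119708260 on GRCm38), the synthase that makes HMG-CoA for the mevalonate pathway, had the highest level per kilobase of the synthesis enzymes, 161 CPM per kilobase of exon. CPM here are counts scaled to the size of the library by trimmed means (TMM). Hmgcs1 stood at 766, 867, 770, 807 and 658 CPM in M337V 1, 2, 3, 7 and 9, at 951 and 778 CPM in WT 8 and 10, and at 653, 643 and 509 CPM in NTg 4, 5 and 6. Every transgenic library lay above every NTg library, with M337V 9 only just above NTg 4. The log2 difference was 0.52 ± 0.13 (SE, adjusted p = 0.0376) in WT against NTg. In M337V against NTg it was 0.36 ± 0.10 with an adjusted p = 0.0665, past the threshold neither there nor in 13 of the 20 alternatives. With NTg 4 left out it was 0.43 in M337V against NTg (adjusted p = 0.0901) and 0.59 in WT against NTg (adjusted p = 0.0554).

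Idi1 (chr13:8885501-8892451), the isomerase that makes dimethylallyl pyrophosphate, stood at 46.0, 52.7, 47.7, 51.5 and 45.4 CPM in M337V 1, 2, 3, 7 and 9, at 55.4 and 51.7 CPM in WT 8 and 10, and at 42.4, 39.9 and 33.1 CPM in NTg 4, 5 and 6. Both transgenic groups lay above NTg, with NTg 6 the lowest library, and M337V 2 lay above WT 10. Idi1 rose by 0.34 ± 0.08 in M337V against NTg (log2, SE, adjusted p = 0.0438) and by 0.48 ± 0.10 in WT against NTg (adjusted p = 0.0252). Without the library labelled NTg animal 4 the difference was 0.42 in M337V against NTg (adjusted p = 0.0496) and 0.56 in WT against NTg (adjusted p = 0.0308). Over all alternatives the adjusted p ran from 0.0041 to 0.262 in the M337V comparison and from 0.00059 to 0.0845 in the WT comparison.

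Ggps1 (chr13:14050659-14063488), which makes geranylgeranyl pyrophosphate on a side branch of the pathway, stood at 63.2, 67.6, 72.3, 65.2 and 66.9 CPM in M337V 1, 2, 3, 7 and 9 and at 70.9 and 78.9 CPM in WT 8 and 10. The 3 NTg libraries lay close together at 56.1, 57.0 and 56.9 CPM, below each of the other 7. The lowest of all libraries was NTg 4, despite its human TARDBP counts. Ggps1 rose by 0.24 ± 0.06 in M337V against NTg (adjusted p = 0.0396) and by 0.40 ± 0.07 in WT against NTg (adjusted p = 0.0134). Leaving out NTg 4 gave 0.24 in M337V against NTg (adjusted p = 0.0945) and 0.40 in WT against NTg (adjusted p = 0.0354). Its exons share 257 bases with Arid4b on the opposite strand, and the strand setting of the counting is not given in the sources used here.

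Cyp51 (chr5:4081145-4104746), the demethylase of lanosterol, stood at 203, 235, 199, 200 and 191 CPM in M337V 1, 2, 3, 7 and 9, at 224 and 216 CPM in WT 8 and 10, and at 154, 164 and 165 CPM in NTg 4, 5 and 6. The gap between the lowest transgenic and the highest NTg library was wider than the range of the NTg libraries. NTg 4, which held human TARDBP counts against its label, was the lowest of all libraries. Cyp51 rose by 0.35 ± 0.06 in M337V against NTg (adjusted p = 0.0218) and by 0.45 ± 0.08 in WT against NTg (adjusted p = 0.0135). In the fit without NTg 4 it was at 0.33 in M337V against NTg (adjusted p = 0.0559) and 0.43 in WT against NTg (adjusted p = 0.0371). It was called in 17 of the 20 alternatives in each of these comparisons, and it shares 166 exon bases with Akap9 on the opposite strand.

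Msmo1 (chr8:64718139-64733792), which acts shortly after Cyp51 and oxidises the methyl groups of the sterol ring, stood at 190, 219, 207, 201 and 167 CPM in M337V 1, 2, 3, 7 and 9, at 223 and 213 CPM in WT 8 and 10, and at 163, 160 and 127 CPM in NTg 4, 5 and 6. M337V 9 lay close to NTg 4 and NTg 5, and NTg 6 was well below them. Msmo1 rose by 0.39 ± 0.09 in M337V against NTg (adjusted p = 0.0425) and by 0.54 ± 0.12 in WT against NTg (adjusted p = 0.0254), the highest log2 difference of the 33 genes in both comparisons. Once NTg 4 was left out it was at 0.46 in M337V against NTg (adjusted p = 0.0584) and 0.61 in WT against NTg (adjusted p = 0.0395).

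**Figure D1:**
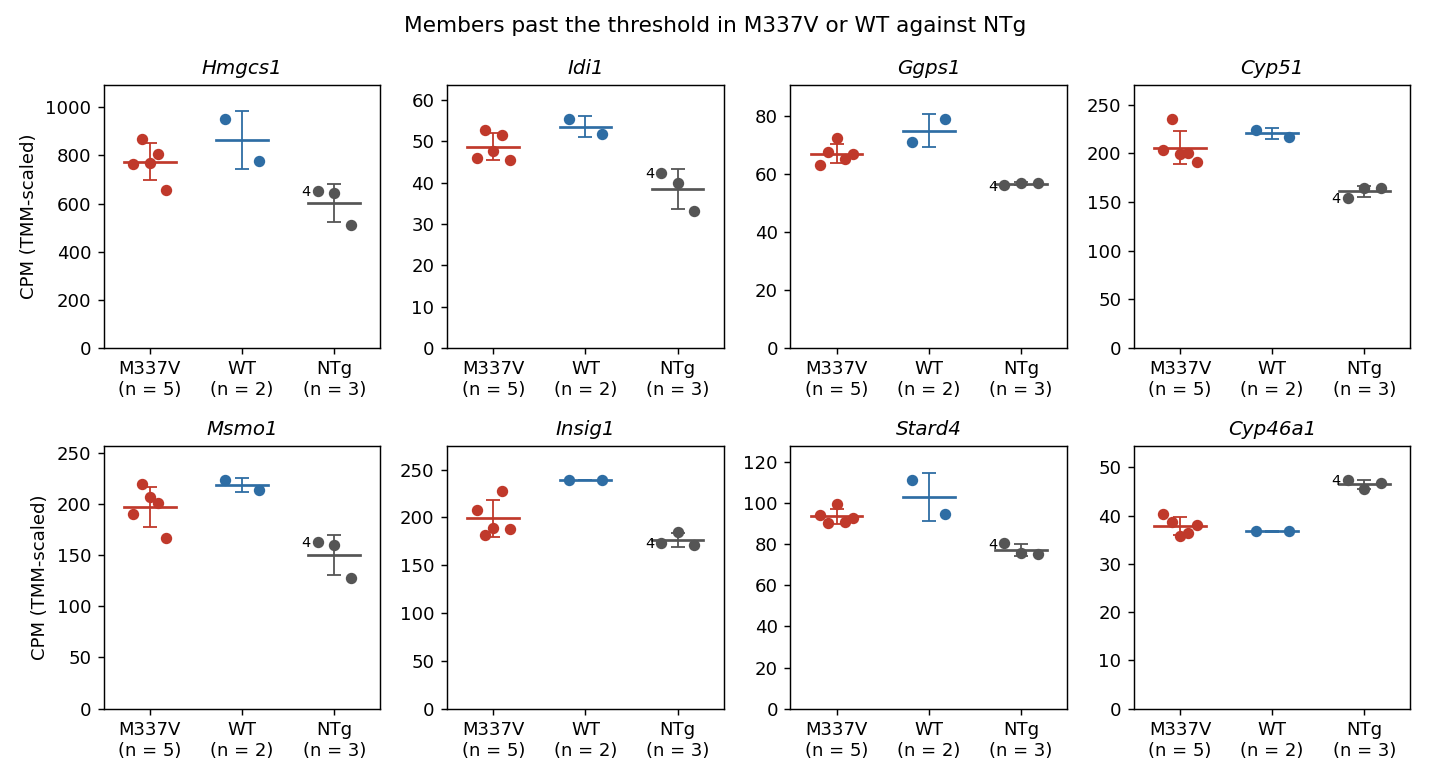
Level of each of the 8 called genes (TMM-scaled CPM, axes from 0) in the M337V, WT and NTg libraries. Points are libraries, horizontal lines are group means, bars are 1 SD, and the 4 marks the library labelled NTg animal 4; Cyp46a1 is lower in all 7 transgenic libraries than in NTg, and 6 of the other 7 genes are higher in all 7, while Insig1 in M337V 2 (182 CPM) lies below NTg 5 (185 CPM).

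The other synthesis enzymes did not pass edgeR's test in either comparison, while DESeq2 called Hsd17b7, Sc5d and Sqle higher in WT against NTg. The 6 of them furthest above 0 in M337V against NTg act on squalene or sterols. The log2 differences were 0.24 in M337V against NTg and 0.34 in WT against NTg for the desaturase Sc5d, and 0.18 and 0.30 for Dhcr7, which makes the last double-bond reduction in one branch. For the reductase Hsd17b7 they were 0.16 in M337V against NTg and 0.31 in WT against NTg, and for the dehydrogenase Nsdhl 0.17 and 0.23. Sqle, the squalene epoxidase, was at 0.10 in M337V against NTg and 0.27 in WT against NTg, and the cyclase Lss at 0.09 and 0.19. The lowest adjusted p of these 6 by edgeR was 0.0665 (Hsd17b7 in WT against NTg).

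The remaining 8 enzymes were near 0 in M337V against NTg, between -0.02 and 0.03 on the log2 scale. They were the mevalonate kinase Mvk, the phosphomevalonate kinase Pmvk, the decarboxylase Mvd, the farnesyl pyrophosphate synthase Fdps, the squalene synthase Fdft1, the sterol reductase Tm7sf2, the isomerase Ebp and the thiolase Acat2. The same enzymes lay between 0.07 (Tm7sf2) and 0.25 (Ebp) in WT against NTg. Mvd stood at 22.6 to 29.4 CPM in M337V, 30.6 and 32.9 CPM in WT and 24.8 to 30.4 CPM in NTg, so both WT libraries lay above all others. Ebp likewise stood at 23.3 to 25.8 CPM in M337V, 28.8 and 29.2 CPM in WT and 22.5 to 25.3 CPM in NTg. The lowest library was NTg 6 for 10 of the 19 enzymes, M337V 9 for 4 and NTg 4 for 2 (Ggps1 and Cyp51).

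The sterol sensors did not move as 1 group. In M337V against NTg edgeR called 0 of 5 (1 higher and 2 lower at an unadjusted p under 0.05) and DESeq2 1, Srebf1; in WT against NTg edgeR called 1 of 5, Insig1. Over all genes tested, 24.5% had an unadjusted p under 0.05 in M337V against NTg, in either direction. The median log2 difference of the 5 sensors was -0.11 in M337V against NTg and -0.12 in WT against NTg. After the removal of trends over GC content and transcript length it was 0.01 and 0.07. The median over all genes tested had then moved to 0.04 and 0.06, so the sign depends on that scaling and its shifted zero. Insig1 (chr5:28071363-28078662), which holds Scap in the endoplasmic reticulum and is itself a target of the SREBP factors, stood at 208, 182, 189, 228 and 188 CPM in M337V 1, 2, 3, 7 and 9, at 239 CPM in both WT libraries, and at 173, 185 and 172 CPM in NTg 4, 5 and 6. The WT libraries were above all others, while M337V 2 fell within the NTg range. Insig1 rose by 0.44 ± 0.09 in WT against NTg (adjusted p = 0.0201) and differed by 0.17 ± 0.07 in M337V against NTg (adjusted p = 0.154). Insig1 was at 0.43 in WT against NTg without NTg 4 (adjusted p = 0.0547). The related Insig2 was at 0.01 in M337V against NTg and 0.05 in WT against NTg.

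Srebf1, which encodes SREBP-1, the factor tied more to fatty acid genes, stood at 75.3 to 93.3 CPM in M337V, 84.0 and 72.6 CPM in WT and 89.7 to 102 CPM in NTg. Its log2 difference was -0.25 ± 0.08 in M337V against NTg (adjusted p = 0.0919) and -0.32 ± 0.10 in WT against NTg (adjusted p = 0.0807). DESeq2 called it lower in both. The escort gene Scap had log2 differences of -0.20 in M337V against NTg (adjusted p = 0.0855) and -0.14 in WT against NTg. Srebf2, which encodes SREBP-2, the main factor of the synthesis genes, was at -0.11 in M337V against NTg and -0.12 in WT against NTg. Scap and Srebf2 ranged across overlapping levels in M337V and NTg, with 67.9 to 78.8 against 78.2 to 88.0 CPM for Scap and 179 to 214 against 212 to 226 CPM for Srebf2. These 3 genes are rich in GC, at 57.9% to 59.1%. After the removal of the trends Srebf2 was above 0 in both comparisons (0.03 and 0.07) and Scap in WT against NTg (0.06). Those values lay near the medians of all genes tested in that setting (0.04 in M337V against NTg and 0.06 in WT against NTg).

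With all libraries none of the 6 LXR and efflux genes was called in either comparison by edgeR or DESeq2. At an unadjusted p under 0.05 by edgeR 1 was lower in M337V against NTg and 2 in WT against NTg. Over all genes tested, 24.5% and 25.3% had such a p, in either direction. The median log2 difference of the 6 genes was -0.11 in M337V against NTg, with 1 of 6 above 0. In WT against NTg it was -0.23, with 0 of 6 above 0. After the removal of the GC and length trends the medians were -0.01 and -0.04, where all genes tested had 0.04 and 0.06. The exporter Abca1, which loads cholesterol onto apolipoproteins, stood at 48.0 to 67.2 CPM in M337V, 51.3 and 57.0 CPM in WT and 64.8 to 71.0 CPM in NTg, with log2 differences of -0.20 (adjusted p = 0.205) and -0.32 (adjusted p = 0.109). The exporter Abcg1 was at -0.20 in M337V against NTg and -0.12 in WT against NTg. With libraries left out, edgeR called Abcg1 lower in M337V against NTg without M337V 9 and without M337V 7 and 9, and Abca1 lower in WT against NTg without M337V 3. Mylip, a ubiquitin ligase that marks lipoprotein receptors for breakdown, had 9.21 to 13.4 CPM in M337V, 9.78 and 8.48 CPM in WT and 10.9 to 14.5 CPM in NTg. Its log2 difference was -0.46 ± 0.17 in WT against NTg (adjusted p = 0.11) and -0.12 ± 0.13 in M337V against NTg.

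Apoe, the main apolipoprotein of neural tissue, had the highest level per kilobase of the 33 genes, 559 CPM per kilobase. It stood at 1064 to 1354 CPM in M337V, 983 and 1186 CPM in WT and 1184 to 1260 CPM in NTg, with overlapping groups and log2 differences of 0.02 in M337V against NTg and -0.16 in WT against NTg. Of the receptors, Nr1h2 (LXR beta) was at -0.04 in both comparisons. Nr1h3 (LXR alpha) had the lowest level per kilobase of the 33, 1.83 CPM per kilobase, and was at -0.10 in M337V against NTg and -0.31 in WT against NTg, with a SE of 0.13 and 0.17.

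Of the genes of carriage, storage and removal, Stard4 rose, Cyp46a1 fell and Soat1 was not called. Stard4, a soluble sterol carrier and a target of the SREBP factors, stood at 94.3, 90.5, 99.5, 91.0 and 92.8 CPM in M337V 1, 2, 3, 7 and 9, at 111 and 94.6 CPM in WT 8 and 10, and at 80.4, 75.8 and 75.3 CPM in NTg 4, 5 and 6. All 7 transgenic libraries were higher than all 3 NTg libraries. It rose by 0.28 ± 0.06 in M337V against NTg (adjusted p = 0.0323) and by 0.42 ± 0.07 in WT against NTg (adjusted p = 0.0152). Stard4 was at 0.32 in M337V against NTg (adjusted p = 0.0522) and 0.45 in WT against NTg (adjusted p = 0.0298) with NTg 4 left out. Soat1, which esterifies cholesterol for storage, was at 0.01 in M337V against NTg and 0.14 in WT against NTg.

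Cyp46a1 (chr12:108334381-108362234), the neuronal cholesterol hydroxylase, stood at 40.3, 38.7, 35.8, 36.3 and 38.2 CPM in M337V 1, 2, 3, 7 and 9, at 36.7 and 36.9 CPM in WT 8 and 10, and at 47.4, 45.5 and 46.7 CPM in NTg 4, 5 and 6. The highest transgenic library lay well below the lowest NTg library, and the spread within each group was small. The highest of all libraries was NTg 4, despite its human TARDBP counts. The log2 difference was -0.30 ± 0.05 in M337V against NTg (adjusted p = 0.0199) and -0.34 ± 0.07 in WT against NTg (adjusted p = 0.0198). Leaving NTg 4 out gave -0.28 in M337V against NTg (adjusted p = 0.0565) and -0.32 in WT against NTg (adjusted p = 0.0596). The longest transcript of Cyp46a1 has a GC content of 58.4%. After the removal of the GC and length trends the log2 difference was -0.15 in M337V against NTg (adjusted p = 0.120) and -0.12 in WT against NTg (adjusted p = 0.285), no longer past the threshold. Over all alternatives its adjusted p ran from 0.00060 to 0.160 in M337V against NTg and from 0.0024 to 0.285 in WT against NTg. None of the 8 neuron markers was called by edgeR in either comparison, with a median log2 difference of -0.10 in each. At an unadjusted p under 0.05, 1 was higher and 1 lower in M337V against NTg, and 1 and 3 in WT against NTg. Over all genes tested, 24.5% and 25.3% had such a p, in either direction. What part neurons have in the Cyp46a1 difference was not tested.

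**Figure D2:**
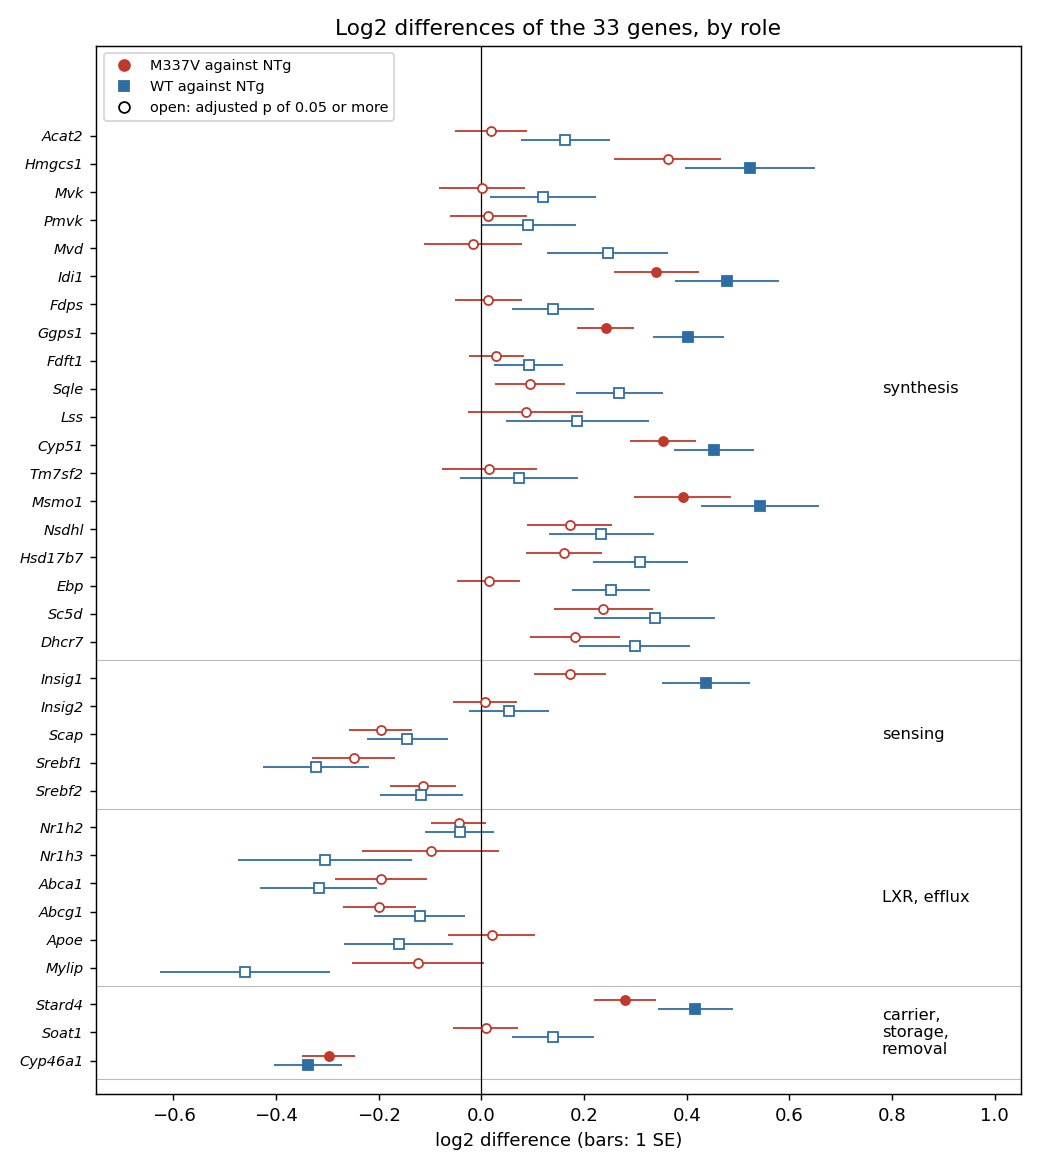
Log2 difference of each of the 33 genes in M337V against NTg (circles) and WT against NTg (squares), by role, with bars of 1 SE. Filled symbols passed the adjusted p of 0.05; 18 of 19 synthesis enzymes lie above 0 in M337V and 19 of 19 in WT, with medians of 0.10 (M337V) and 0.25 (WT), and most LXR and efflux genes lie below 0, with medians of -0.11 and -0.23.

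By overlap of libraries, 7 of the 33 genes (Hmgcs1, Idi1, Ggps1, Cyp51, Msmo1, Dhcr7 and Stard4) were higher in every M337V library than in every NTg library, where 9.51% of all genes tested were, and 1 (Cyp46a1) was lower, where 8.61% were. The same 7 genes and Cyp46a1 did so when the WT libraries were included, against 8.03% of all genes higher and 6.37% lower. In WT against NTg, 19 of the 33 were higher in both WT libraries than in every NTg library, against 19.6% of all genes, and 7 were lower, against 22.1%. With 2 WT libraries such a separation is frequent, as those shares show.

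Between the transgenic groups, none of the 33 genes passed the test, with a lowest adjusted p = 0.625. All 19 synthesis enzymes were nonetheless below 0 in M337V against WT, between -0.26 (Mvd) and -0.06 (Tm7sf2), with a median of -0.13 where all genes tested had 0.00. The log2 difference of Insig1 was -0.27 (95% interval -0.44 to -0.09), that of Ebp -0.24 (-0.39 to -0.09) and that of Ggps1 -0.16 (-0.30 to -0.02). For Cyp51 it was -0.10 (95% interval -0.26 to 0.06), for Msmo1 -0.15 (-0.38 to 0.08) and for Cyp46a1 0.04 (-0.09 to 0.17). Unadjusted p values were under 0.05 for 5 genes lower in M337V (Mvd, Ggps1, Sqle, Ebp and Insig1) and 1 higher (Mylip, 0.34, with an interval of 0.00 to 0.67). The LXR and efflux genes had a median of 0.15. Intervals are not adjusted for the number of genes, and with 2 WT libraries they leave room for differences of either sign for most of the 33.

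Within each library, the balance of synthesis enzymes over LXR and efflux genes was lowest in the NTg libraries and M337V 9 and highest in the WT libraries. To score a list, each gene's log2 CPM was centred on its mean over the 10 libraries, and the centred values of the list were averaged. The synthesis score was 0.01, 0.13, 0.00, 0.03 and -0.10 in M337V 1, 2, 3, 7 and 9, 0.20 and 0.10 in WT 8 and 10, and -0.09, -0.09 and -0.19 in NTg 4, 5 and 6. M337V 9 was thus within the NTg range and the other 6 transgenic libraries above it. The LXR and efflux score was -0.06, 0.05, -0.11, 0.02 and 0.06 in those M337V libraries, -0.13 in both WT libraries, and 0.12, 0.02 and 0.16 in NTg 4, 5 and 6, so M337V and NTg overlapped. The synthesis score minus the LXR and efflux score was 0.08, 0.08, 0.11, 0.01 and -0.16 in M337V, 0.33 and 0.23 in WT and -0.21, -0.12 and -0.35 in NTg, in the same order. Both WT libraries exceeded every M337V library, and M337V 9 was again within the NTg range. The synthesis score minus the sensor score was -0.04 to 0.24 in M337V, 0.16 and 0.10 in WT and -0.23 to -0.11 in NTg, with no NTg library above a transgenic one.

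Markers of oligodendrocytes, the cells that build central myelin, were also higher in both transgenic groups than in NTg. Of 10 markers 6 were called higher in M337V against NTg and 7 in WT against NTg, with medians of 0.38 and 0.46 and 0 lower. Their summed level was 31560 to 38940 CPM in M337V, 34370 and 38260 CPM in WT and 23450 to 27990 CPM in NTg, with no overlap, and no marker was at 0. Their score was lowest in NTg 6 (-0.42) and, among the M337V libraries, in M337V 9 (-0.04), which were also the lowest libraries of the synthesis score in those groups. The score of microglia markers was likewise lowest in NTg 6 (-0.33) and, among the M337V libraries, in M337V 9 (0.04). Other libraries ranked differently. M337V 1 had an oligodendrocyte score of 0.18 and a synthesis score of 0.01, against 0.04 and 0.03 in M337V 7. The part of oligodendrocytes in the cholesterol gene differences was not tested.

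**Figure D3:**
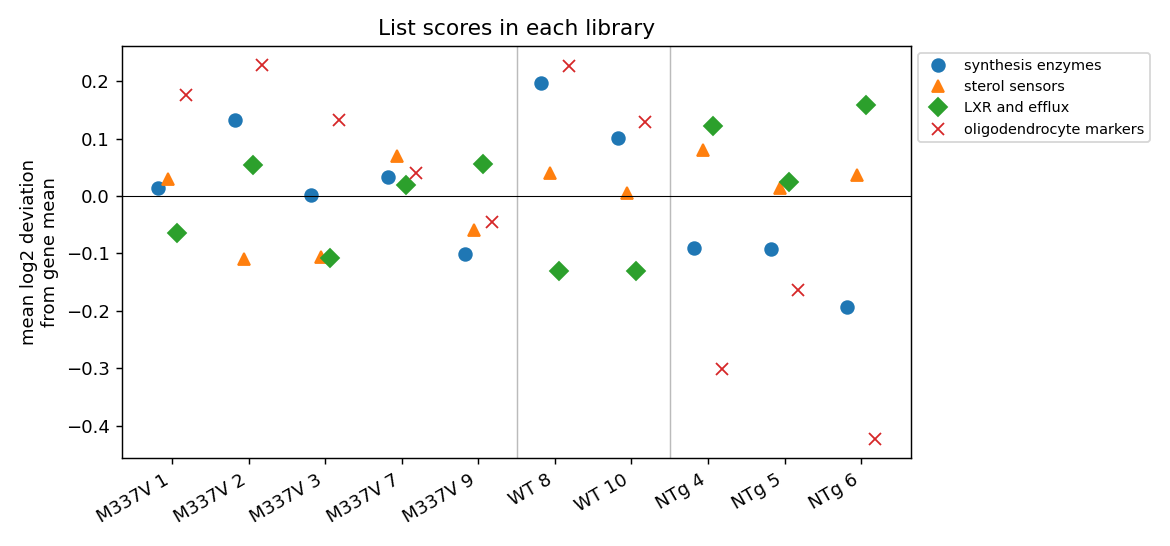
Score of the synthesis enzymes, sterol sensors, LXR and efflux genes and oligodendrocyte markers (mean log2 deviation from each gene's mean over the 10 libraries) in each library, with M337V at the left, WT in the middle and NTg at the right. The 3 NTg libraries have the lowest oligodendrocyte marker scores (-0.42 to -0.16) and synthesis scores of -0.19 to -0.09.

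Of the other cell type lists, 1 of 6 precursor markers was called higher in M337V against NTg and 0 in WT against NTg, and 0 of 8 astrocyte and 0 of 6 motor neuron markers were called in either. Of 7 microglia markers 1 was called higher in each comparison, and all 7 were above 0 in both, with a median of 0.25 in each. At an unadjusted p under 0.05 in edgeR's test 6 of them were higher in M337V against NTg and 3 in WT against NTg. Of all genes tested, 24.5% and 25.3% had such a p in these comparisons, in either direction. The summed level of the microglia markers was 389 to 415 CPM in M337V, 420.3 and 391 CPM in WT and 313 to 371 CPM in NTg. Every transgenic library thus lay above every NTg library. No endothelial, meningeal fibroblast or Schwann cell marker was called (0 of 6 each), though at an unadjusted p under 0.05 in edgeR's test 5 Schwann cell, 3 fibroblast and 3 endothelial markers were lower in WT against NTg. Neutrophil markers were lower, 4 of 6 in each comparison, with summed levels of 47.5 to 125 CPM in M337V, 25.9 and 89.0 CPM in WT and 475, 140.5 and 223 CPM in NTg 4, 5 and 6. Of 7 muscle and fat genes tested 2 were lower in M337V against NTg and 0 in WT against NTg, with summed levels of 16.8 to 96.1 CPM in M337V, 284 and 13.5 CPM in WT and 86.8 to 501 CPM in NTg. The fat genes Adipoq and Plin1 were at 0 in 1 or more libraries. The part of these cells in the results was not tested.

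The GC content of a gene went with its difference. Across the 33 genes Spearman's rho between the GC content of the longest transcript and the log2 difference was -0.70 in M337V against NTg and -0.68 in WT against NTg, and across the 19 synthesis enzymes it was -0.81 and -0.74. Across 15149 genes with a GC content rho was -0.45 and -0.44. The genes share their libraries, so these values are descriptions. The 4 synthesis enzymes called in M337V against NTg had a median GC content of 43.3% (40.1% to 46.2%) and the other 15 one of 50.6% (42.9% to 59.0%). After a correction that smooths each library over GC content and transcript length, all 19 synthesis enzymes were above 0 in both comparisons. Their medians were then 0.14 in M337V against NTg and 0.29 in WT against NTg. All genes tested had 0.04 and 0.06 in that setting, so its zero was shifted. In that setting 3 of the 33 genes (Cyp51, Msmo1 and Stard4) were called in M337V against NTg, and 11 in WT against NTg, which were Mvd, Sqle, Ebp and Dhcr7 with the 7 called higher without the correction. Over all 15191 genes it called 471 in M337V against NTg and 895 in WT against NTg.

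The removal of the trends also changed the balance of calls over all genes. Calls were 393 higher and 78 lower in M337V against NTg after removal, where the fit without it had 406 and 245. In WT against NTg they were 751 and 144 after removal, where that fit had 545 and 312. The share of called genes that were higher was 62.4% as fitted and 83.4% after removal in M337V against NTg, and 63.6% and 83.9% in WT against NTg. Limma-voom gave 81.9% in WT against NTg. Cyp51 was at 0.36 in M337V against NTg and 0.47 in WT against NTg after removal, Msmo1 at 0.36 and 0.53, and Stard4 at 0.25 and 0.38. Idi1 was at 0.26 (adjusted p = 0.0731) and Ggps1 at 0.13 (adjusted p = 0.148) in M337V against NTg, no longer called there. The part of GC content in the group differences was not tested beyond this.

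**Figure D4:**
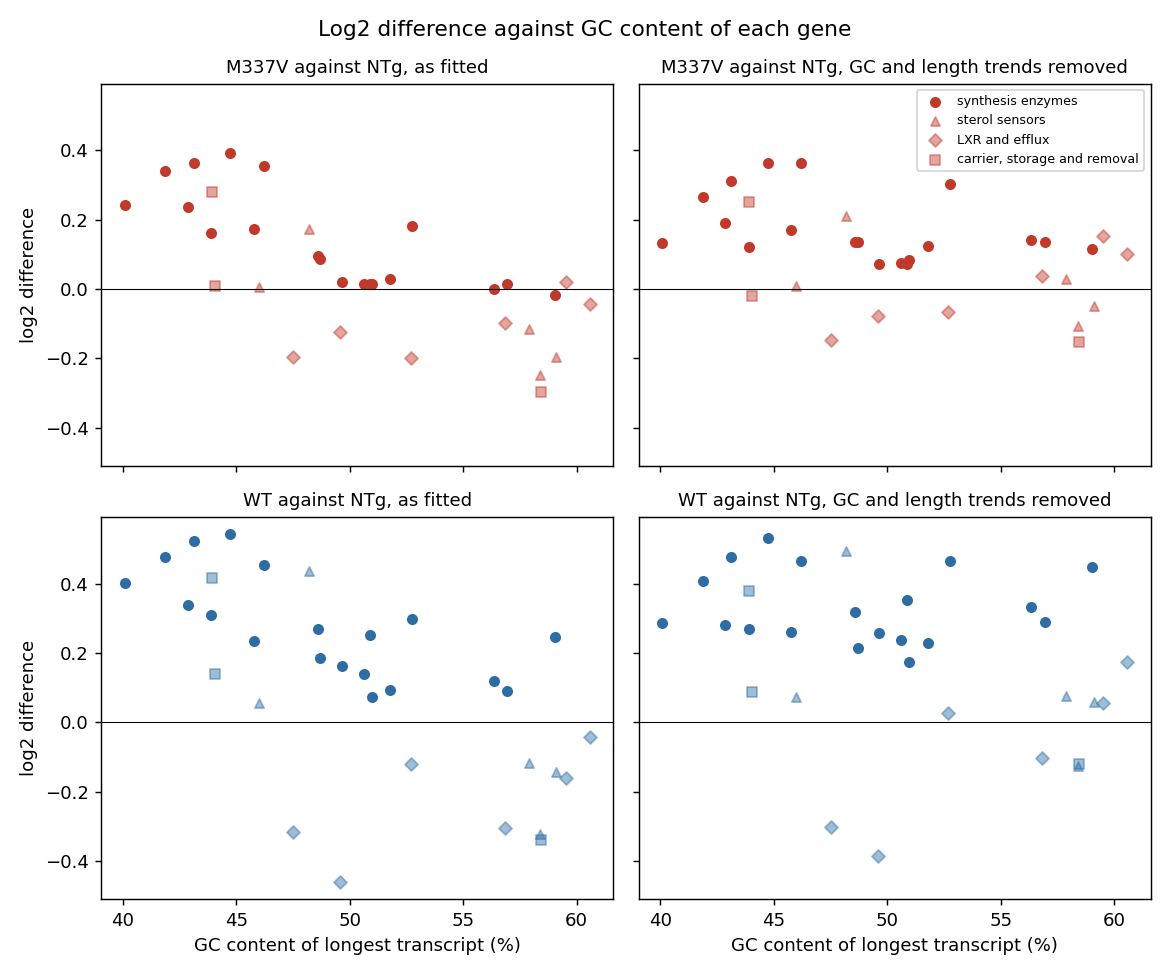
Log2 difference against the GC content of the longest transcript (percent) for the 33 genes, in M337V against NTg (upper panels) and WT against NTg (lower panels), as fitted (left) and with GC and length trends removed (right). Each point is a gene, with its shape giving its role. As fitted the differences fall with GC content (rho of -0.70 and -0.68). After removal all 19 synthesis enzymes lie above 0, where the median over all genes tested was also above 0, at 0.04 (M337V) and 0.06 (WT).

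Of 26 other genes that handle cholesterol, 25 passed the filter and were tested. Of these 25, 4.0% were called in M337V against NTg, where 4.29% of all genes tested were. In WT against NTg 8.0% were called, where 5.64% of all genes tested were. In M337V against NTg 0 were called higher and 1 lower, the exporter gene Abcg4 (log2 difference -0.25, adjusted p = 0.0443), with a median of -0.03. The WT comparison called 1 higher, the lipoprotein receptor gene Vldlr (0.30, adjusted p = 0.0237), and 1 lower, Abcg4 (-0.42, adjusted p = 0.0183), with a median of -0.01. Lrp1, a receptor that takes up lipoproteins with apolipoprotein E, stood at 374 to 561 CPM in M337V, 515 and 403.5 CPM in WT and 572 to 672 CPM in NTg. It was lower in all 7 transgenic libraries than in every NTg library, at -0.43 ± 0.13 in M337V against NTg (adjusted p = 0.0781) and -0.46 ± 0.17 in WT against NTg (adjusted p = 0.122). Npc2 was higher in all 7, at 0.22 ± 0.06 (adjusted p = 0.0598) and 0.19 ± 0.07 (adjusted p = 0.131). Of the 25 genes tested, 3 were lower and 2 higher in all 7, where 6.37% and 8.03% of all genes tested were. Ch25h, a cholesterol hydroxylase named after its values were seen, had 0.16 to 0.83 CPM, with log2 differences of -0.79 ± 0.51 in M337V against NTg and -1.45 ± 0.72 in WT against NTg, not called in either.

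Of 10 fatty acid genes that SREBP-1 is known to switch on, 1 was called higher in M337V against NTg, the desaturase Scd1 (0.28, adjusted p = 0.0423). The WT comparison called 2 higher, the acetyl-CoA synthetase Acss2 (0.32, adjusted p = 0.0496) and the elongase Elovl6 (0.27, adjusted p = 0.0492). None was called lower. Over all genes tested, 2.67% were called higher in M337V against NTg and 3.59% in WT against NTg. The medians of the 10 genes were 0.05 in M337V against NTg and 0.13 in WT against NTg, where all genes tested had -0.01 and -0.02. The fatty acid synthase gene Fasn was at -0.34 in M337V against NTg (adjusted p = 0.0620) and -0.20 in WT against NTg. Neither list had a called gene in M337V against WT.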

How the data were processed

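Raw read counts per gene and library were deposited by the authors as whole numbers without normalisation, from stranded polyA libraries read as pairs, per the labels' protocols. Per the submitters' processing notes, which give no roles, the tools were STAR 2.4.2a, Subread 1.4.6 with featureCounts, Salmon 0.8.2, Trimmomatic 0.32, FastQC 0.11.2, DESeq2 1.14.1, Picard 2.6.0 and R 3.3.0. The genome build is not given in the sources used here, nor is the strand setting, so overlapping genes on opposite strands cannot be told apart. Gene names and coordinates come from GENCODE M21 (GRCm38), which named 21774 of 22024 identifiers (250 unnamed). Promoter windows come from RefSeq (GRCm38.p6).

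Groups follow the genotype labels and animals the numbers in the titles. The labels give no litter, date or batch, and p-values measure the spread between these animals. No pair of libraries agreed within sampling noise (lowest chi-square per degree of freedom 4.87). Genes were filtered with filterByExpr (minimum count 10, minimum total 15; 6833 removed), scaled by TMM and fitted with edgeR 4.0.16 (limma 3.58.1, R 4.3.3), with 1 mean for each group, all 10 libraries in the model, and a Benjamini-Hochberg adjusted p below 0.05 as threshold. The fit was tested on simulated data.

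Alternatives were DESeq2 1.42.0, limma-voom, RLE size factors, a filter at a mean of 1 CPM in every group or none, the compared groups fitted alone, offsets that remove trends over GC content and length (loess span 0.3), each library left out, both NTg 4 and WT 8 left out, and M337V 1 to 3 or M337V 7 and 9 left out. List scores use log2(CPM + 0.1). The 33 genes and the gene lists (other cholesterol genes, fatty acid genes and markers of cell types) were chosen with earlier results of these data known. All 33 could be named. Called genes got every library's value, and of the other lists the called genes and up to 4 with the smallest p could be named. Some genes of these lists are not reported here by name. Lists are described by counts and medians without a set test.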

Additional observations from a re-analysis of the deposited data

Results flagged for a closer look

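Among the 33 genes, Cyp51 in M337V 2 stood far from the other M337V libraries. It had 234.9 CPM there, against 203 CPM in the next highest and 191 CPM in the lowest of the 5 M337V libraries. The gap to the next library was 0.730 of the group's range, above the critical value of 0.71 for 5 libraries. The 33 genes were each tested in this 1 group, and chance flags about 1 in 20 groups, or 1.65 of the 33. Without M337V 2 Cyp51 was still called higher in M337V against NTg.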

How the results depend on the processing

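No paired analysis was possible because the groups share no animal number. The number of the 33 genes called in M337V against NTg (6) was 3 with the GC content and length trends removed, 8 with DESeq2, 0 without M337V 1 to 3, and 0 to 7 with single libraries left out. In WT against NTg (8) it was 3 in a fit of both groups alone, 3 with limma-voom, 12 with DESeq2, 11 with the trends removed, 1 without both NTg 4 and WT 8, and 0 to 10 with single libraries left out. In M337V against WT it was 0 throughout. Over all genes, M337V against NTg (651) gave 1057 in the fit of both groups alone, 1315 with limma-voom, 1499 with DESeq2, 3 without M337V 1 to 3, 1146 without M337V 7 and 9, and 2 to 1016 with single libraries left out. WT against NTg (857) gave 258, 215 and 1720 in those 3 settings, 142 without both NTg 4 and WT 8, where 47.2% of calls were higher, and 44 to 1086 with single libraries left out. M337V against WT (0) gave 1 with no filter, 30 with DESeq2, 4 without both NTg 4 and WT 8, 4 without M337V 7 and 9, and 0 to 6 with single libraries left out. The cause of these moves was not tested. Of 660 values of single genes in each comparison with NTg, 0 called ones reversed; 41 lost and 11 gained the threshold in M337V against NTg, and 44 lost and 13 gained it in WT against NTg. The small groups, 2 WT and 3 NTg libraries, limit the precision of each value.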
